A study of Arabidopsis thaliana with 42 samples.

Results

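The genes described here are 150 Arabidopsis genes picked by a rule for a late difference between darkened and lit WT leaves that was alike in both genotypes at its end. They were taken from RNA-seq profiles of leaf blades in 42 libraries of 14 groups, 3 libraries a group, each library a pool of 2 leaves from independent plants grown in short days. The tested genotype was *rpn12a-236*, a single EMS line in the Col-0 background with a premature stop in RPN12a, a regulatory subunit of the proteasome. It was backcrossed 2 times. The study's search, narrowed to homozygous changes in exons that alter the protein, left 7 genes of chromosome 1, RPN12a included. Of these 7 genes 0 are among the 150, and changes outside that search were not checked. Leaves of *rpn12a-236* were taken from lit plants at the start (0 d) and, as individually darkened leaves (IDLs, single leaves covered while the plant stayed in light), after 6 h, 1 d, 3 d and 6 d. WT Col-0 had these same groups plus light leaves for each of the 4 later times. The mutant has no light leaves after 0 d, so that darkening and leaf age cannot be told apart in it. Harvest was at 8 am, but at 2 pm for the 6 h groups.

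The values are z-scores: each gene was scaled over the 42 libraries to a mean of 0 and an SD of 1. A value of 1 therefore lies 1 SD of that gene above its own mean, and it holds no expression level, fold change or sequencing depth. In bulk leaves, fewer cells of a type and less RNA per cell cannot be told apart.

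Leaf senescence is an ordered dismantling of the leaf, in which chloroplasts are broken down and their nitrogen and carbon are exported to the rest of the plant. Covering a single leaf sets it going quickly, through the loss of photosynthate and through ethylene, abscisic acid, jasmonate and salicylic acid, with cytokinin holding it back. NAC and WRKY factors drive much of the program, and the proteasome removes many of the regulators of these hormone pathways.

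The members were selected on 7 groups: WT IDLs and WT light leaves at 6 h, 1 d and 6 d, and *rpn12a-236* IDLs at 6 d. Of 27050 genes, 17536 had no lowest value shared by several libraries. A gene passed when WT IDLs and WT light leaves differed by less than 0.5 at 6 h and at 1 d, and when *rpn12a-236* and WT IDLs differed by less than 0.5 at 6 d. Only 270 genes passed, and the 150 with the highest WT difference at 6 d were kept. The list therefore takes in more than its name says. The WT difference at 6 d, by which members were ranked, had a median of 1.25 and ran between 3.00 and -0.70. It was above 0.5 in 107 members, above 1 in 92 and above 2 in 33, but it was at or under 0 in 25 members, which were not dark-induced at 6 d at all. The members just inside the edge were NUDT17 (-0.61), AT3G57580 (-0.61), AT4G11690 (-0.64), AT5G23460 (-0.64) and AT1G01940 (-0.70), and those just outside were AT1G74630 (-0.71), SCL30A (-0.76), AT3G52500 (-0.77), AT3G07810 (-0.79) and AT1G07920 (-0.80). The genes are therefore called the members of the rule here. Late dark induction is claimed for the upper 107 in WT alone, as a description of the values that chose them. In *rpn12a-236*, which has no light leaves of 6 d, IDLs of 6 d had a higher mean than leaves of 0 d in 96 of these 107. The share among other genes was not counted.

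At the head of the list stood AT5G18420, a subunit of the CCR4-NOT complex that shortens mRNA tails, on chromosome 5 (6105283 to 6109501, RefSeq TAIR10.1). It had z-scores of 1.47, 1.80 and 2.27 in WT IDLs at 6 d, against -1.48, -1.20 and -0.77 in WT light leaves. Next came AT4G13360, annotated as a Clp protease/crotonase family protein, with 1.61, 1.03 and 0.97 in WT IDLs and -1.58, -2.63 and -1.15 in WT light leaves. The libraries of these genes lay far apart at 6 d, as the ranking requires. The kelch repeat gene AT1G30090 differed by 2.86, SEH1H, a nucleoporin, by 2.77, and PPC3, a phosphoenolpyruvate carboxylase, by 2.70. AT3G43520, a transmembrane protein of the 14C family, differed by 2.59, GTG1, annotated as a GPCR-type G protein, by 2.57, and AT5G13310, AT3G51580 and the cupin AT3G56820 by 2.52, 2.50 and 2.39. In 98 of 150 members all 3 WT IDLs lay above all 3 WT light leaves at 6 d, as they did in 37.8% of the 17536 genes, a count that the ranking sets.

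**Figure D1:**
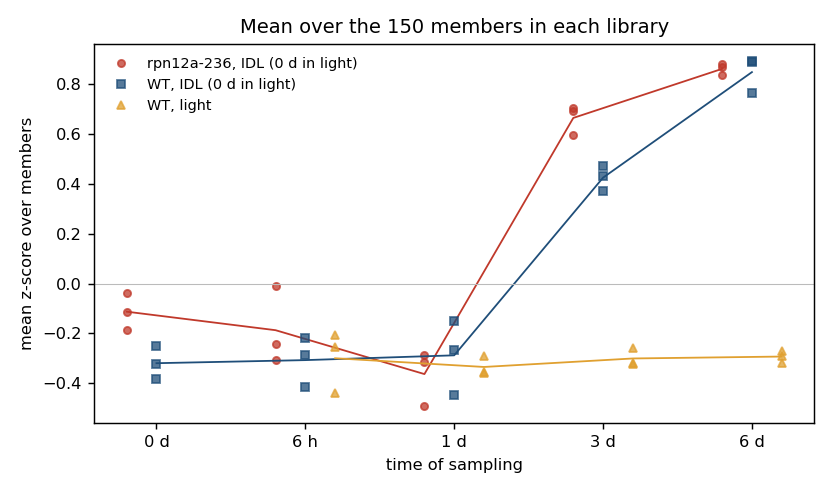
Mean z-score over the 150 members in each library (y axis) at each time of sampling (x axis, evenly spaced) for *rpn12a-236* IDLs, WT IDLs and WT light leaves; each point is 1 library and lines join group means. The *rpn12a-236* IDLs of 3 d lie between 0.60 and 0.70, above the WT IDLs of 3 d between 0.37 and 0.47, while WT light leaves stay below 0 throughout.

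The median over members of the group mean in *rpn12a-236* was -0.10 before darkening, then -0.22 (6 h), -0.21 (1 d), 0.80 (3 d) and 0.99 (6 d). In WT it was -0.34 before darkening, then -0.34 (6 h), -0.36 (1 d), 0.45 (3 d) and 1.00 (6 d) in IDLs. WT light leaves stayed between -0.41 and -0.29 at the 4 later times. The values of 6 d are those that chose the members.

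The members were set against lists of the senescence program. None of the 67 genes in the study's proteasome list was a member. Of the 169 genes in its senescence list 1 was a member (JAZ4), and of the 646 in its hormone list 6 were (JAZ4, ABCC7, EIN4, EFE, AHP2 and ERF11). Of lists assembled for chlorophyll breakdown (11 genes), autophagy (13), senescence WRKY factors (7), vacuolar proteases (7), nitrogen remobilization (7), fatty acid beta-oxidation (8), branched-chain amino acid breakdown (6), abscisic acid and drought (7), seed maturation (5), pathogen response (6) and senescence-associated or dark-inducible genes (13), 0 were members. Of 14 senescence NAC factors 1 was, ANAC087. By annotation 20 members act in RNA processing and translation, 10 in organelle RNA, 18 in ubiquitin transfer, folding or protein breakdown, 17 in transcription, chromatin or DNA, 13 in transport, 7 in hormone pathways and 24 are other enzymes, kinases or cofactor proteins. The remaining 41 had another annotation or none.

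Markers of leaf cell types changed too, mostly toward lower values in IDLs of 3 d, where the medians over the members were higher. The mean z-score of 3 mesophyll markers (RBCS1A, CAB1 and CA1) lay between -0.56 and -0.39 in *rpn12a-236* IDLs at 3 d, against 0.87 to 0.99 in its light leaves of 0 d. It lay between -1.28 and -0.998 in WT IDLs at 3 d, against 0.71 to 0.91 in WT light leaves of 3 d. Between the same WT groups 5 guard cell markers ran between -1.61 and -0.80 in IDLs and 0.29 and 1.11 in light leaves, 3 phloem markers between -0.94 and -0.30 and 0.09 and 0.53, and 3 epidermis markers, 1 of them with a shared lowest value, between -1.15 and -0.76 and 0.38 and 1.78. In *rpn12a-236* the phloem markers did not follow: they ran between 0.01 and 0.53 in IDLs of 3 d and -0.48 and 0.34 at 0 d. Floral organ markers (2 of 3) and the meristem marker found (1 of 1) had a lowest value shared by several libraries, as genes listed at a floor do. The part of cell type in the results was not tested. RPN12a itself had group means of 1.21 to 1.36 in *rpn12a-236* and of -1.17 to -0.16 in WT; as the mutation is a stop codon, the RNA level does not check it.

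The rule left out 7 groups with 21 libraries: *rpn12a-236* light leaves, its IDLs up to 3 d, WT light leaves of 0 d and 3 d, and WT IDLs of 3 d. Only these were tested, with limma across 23824 genes and Benjamini-Hochberg adjustment, and a gene was called at an adjusted p of at most 0.01. All 150 members were tested, and the share called among the 17536 genes without a shared lowest value is given as the background. The z-scores were scaled over all 42 libraries, so these groups are not wholly independent of the rule. The mutant comparisons share the libraries of *rpn12a-236* at 0 d.

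The first question was whether members differ between darkened and lit WT leaves at 3 d. Of the 150, 49 (32.7%) were higher in WT IDLs than in WT light leaves and 7 (4.67%) were lower, against a background of 28.3% higher and 29.4% lower. The median difference was 0.80, against 0.02 over the background genes. The share of higher calls lay near the background and that of lower calls under it. This balance depends on the cut by rank, which is in place with the limit of 0.5 in the rule. With a limit of 0.4 just 140 genes pass, so that none is left out by rank, and 28 of them (20%) were higher and 36 (25.7%) lower at 3 d, with a median of 0.19. These 140 genes are 79 members, of which 28 were higher and 2 lower, and 61 genes with WT differences of -0.77 or less at 6 d, of which 0 were higher and 34 lower. With a limit of 0.6, where the cut by rank remains, 66 of 150 genes were higher and 1 lower.

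AT1G07300, a josephin-like protein of the kind that removes ubiquitin, had the largest difference. Its z-scores were 2.02, 2.14 and 2.80 in WT IDLs at 3 d, against -0.34, -0.03 and -0.69 in WT light leaves. All WT IDLs lay above all light leaves, with a difference of 2.67 ± 0.28 (SE; limma, adjusted p = 3.41e-07). AT3G12860, a NOP56-like protein of the nucleolus where ribosomes are made, had 2.26, 1.75 and 2.08 in WT IDLs against -1.02, 0.11 and -0.36 in light leaves, a difference of 2.46 ± 0.35. The kelch repeat gene AT5G49000 (2.44 ± 0.39), AT1G23950 (2.20 ± 0.24), the receptor-like kinase AT4G03230 (2.19 ± 0.30) and AT5G63120 (2.15 ± 0.27) followed. AT5G63120 and its neighbour AT5G63130 lie on opposite strands of chromosome 5 and are the only adjacent members.

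Some other members with known roles rose at 3 d as well. SWEET12, a sugar transporter that lets sucrose out of cells to the phloem, had 0.29, 0.28 and 0.24 in WT IDLs against -1.12, -1.09 and -1.02 in light leaves (1.35 ± 0.14). ANAC087, a NAC factor, had 0.80, 1.04 and 1.13 against -0.69, -0.54 and -1.35 (1.85 ± 0.22). NF-YC1, a subunit of the CCAAT-binding factor, differed by 1.63 ± 0.36, and ubiquitin-conjugating enzyme UBC29 by 1.59. Among the groups, 7 of 20 RNA processing and translation members were higher and 0 lower, as were 6 and 2 of 18 in ubiquitin and folding, 6 and 1 of 13 in transport, 4 and 1 of 17 in transcription and chromatin, and 2 and 0 of 10 in organelle RNA. Over all 150 members 32.7% were higher and 4.67% lower, beside a background of 28.3% and 29.4%. Few lower calls are therefore no trait of single groups.

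The 7 members lower in WT IDLs ranked 119 or later of 150. EIN4, an ethylene receptor, had -2.45, -1.21 and -1.92 in WT IDLs at 3 d and -0.19, 0.15 and 1.27 in WT light leaves, a fall of 2.27 on the z-score scale (difference -2.27 ± 0.49, adjusted p = 0.000704). AT4G32390, a nucleotide-sugar transporter, differed by -2.04 ± 0.36, the RING finger gene AT3G54780 by -1.79 ± 0.37, NUDT17 by -1.58 ± 0.21 and PRR7, a repressor of the circadian clock, by -1.07 ± 0.20. AT3G51760 (-2.38 ± 0.65) and AT1G01940 (-1.33 ± 0.37) were called as well, but each lost its call when 1 of several libraries was left out, with adjusted p up to 0.0289 and 0.0235. For AT3G51760 these were WT IDL 3 d replicates 2 and 3 and WT light 3 d replicates 2 and 3, and for AT1G01940 all 6 except WT light 3 d replicate 3.

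**Figure D2:**
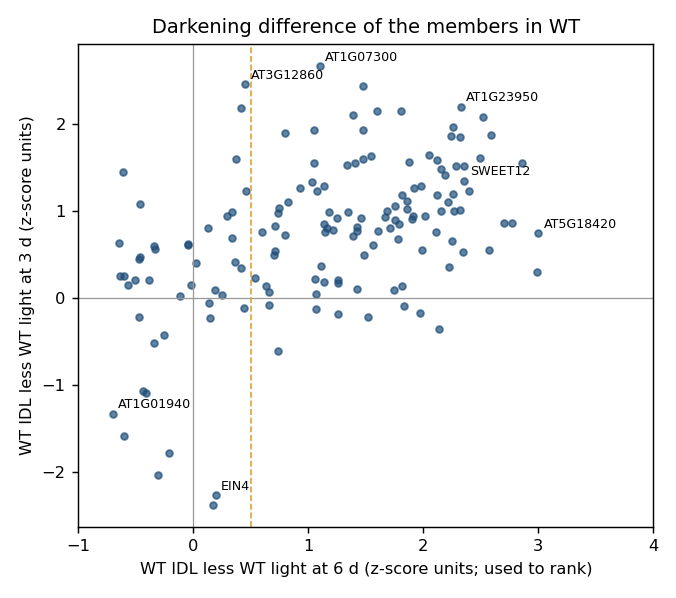
Difference between WT IDLs and WT light leaves at 3 d (y axis) against that at 6 d (x axis), both in z-score units, for the 150 members; the dashed line marks 0.5. The 6 d value ranked the members, and members left of the line spread at 3 d between -2.38 and 2.46.

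Leaf age in the light moved few members. Comparing WT light leaves of 3 d with those of 0 d, 1 member (0.667%) was higher and 3 (2%) were lower, against a background of 0.73% and 0.935%. SWEET12 had -1.12, -1.09 and -1.02 at 3 d and -1.98, -2.02 and -1.98 at 0 d (0.92 ± 0.14). AHP2, which passes phosphate on in cytokinin signalling, had -1.73, -1.003 and -2.09 at 3 d and 0.30, 1.17 and 0.96 at 0 d (-2.41 ± 0.40). PP2AA3, a scaffold of protein phosphatase 2A that is widely used as a reference gene in qPCR, was lower by -1.88 ± 0.31 and TPR1 by -0.98 ± 0.18. These calls are fragile. Without WT light 0 d replicate 2, or without WT light 3 d replicate 1, 0 members were called, without WT light 3 d replicate 3 there were 2, and a fit of the 6 libraries alone called 0. At an unadjusted p under 0.05 there were 43 members (28.7%), against 22.2% of the background genes.

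The mutant's early response asked whether members that were alike in darkened and lit WT leaves at 6 h and 1 d also stood still in *rpn12a-236*. Against its own light leaves of 0 d, 25 members (16.7%) were higher and 32 (21.3%) lower at 6 h, against a background of 21.9% and 23.5%, and the median difference was -0.06. At 1 d 22 (14.7%) were higher and 32 (21.3%) lower, against 27% and 29%, with a median of -0.19. All 4 shares lay below the background. At 6 h the hour of harvest (2 pm against 8 am) cannot be told apart from darkening.

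At 6 h the largest fall was in AT1G64140, annotated as a WRKY factor, with -1.80, -2.18 and -2.07 in *rpn12a-236* IDLs against 1.52, 1.02 and 0.58 at 0 d (-3.06 ± 0.26, adjusted p = 5.9e-08). The splicing factor PRP40C (-2.66 ± 0.43), the ubiquitin-associated protein AT2G41160 (-2.48 ± 0.23), PRR7 (-2.42 ± 0.20), the RNA-binding AT4G13860 (-2.40 ± 0.44) and the repressor ERF11 (-2.32 ± 0.42) were lower too. PRR7 is a clock gene whose RNA changes over the day. HMT2, an enzyme that makes methionine from homocysteine, had 0.01, 0.08 and 0.13 in IDLs at 6 h against -2.79, -2.80 and -2.62 at 0 d, the largest rise (2.81 ± 0.22). AT1G06283 (2.72 ± 0.48), NF-YC1 (2.44 ± 0.36), the ubiquitin hydrolase AT1G06440 (2.41 ± 0.53), the pentatricopeptide repeat gene AT5G02860 (2.34 ± 0.35) and SWEET12 (2.08 ± 0.14) rose with it. Of the 10 organelle RNA members 5 were higher, among them AT5G02860 and MEF7, an editing factor of mitochondrial RNA. None of the 10 was lower, beside a background of 21.9% higher and 23.5% lower. In a fit of the 6 libraries alone AT4G13860 and ERF11 were not called (adjusted p = 0.014 and 0.0175).

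At 1 d IRE1-1, a sensor of unfolded protein in the endoplasmic reticulum, had -2.14, -1.01 and -1.32 in *rpn12a-236* IDLs against 1.95, 2.02 and 2.64 at 0 d. This was the largest difference of the members at 1 d (-3.69 ± 0.46, adjusted p = 3.11e-06). WTF9, which acts in splicing of mitochondrial RNA (-3.12 ± 0.38), the ABC transporter ABCC7 (-3.09 ± 0.35), AT1G71210 (-3.06 ± 0.29), ATKRS-1, a lysyl-tRNA synthetase (-2.96 ± 0.25), and the cyclophilin AT1G01940 (-2.81 ± 0.37) were lower as well. Of 20 RNA processing and translation members 8 were lower and 3 higher, beside a background of 29% lower and 27% higher. The lower ones included the ribosomal proteins AT4G10450 (-2.44) and AT5G39850 (-1.27) and the glutaminyl-tRNA synthetase OVA9 (-1.89). They also included the elongation factor gene AT1G07940 (-2.02), 1 of several near-identical copies between which reads may be split, among them AT1G07920, which stands just outside the list. AT4G10450 had -2.66, -4.00 and -2.11 in IDLs at 1 d against -0.41, -0.43 and -0.61 at 0 d, so its groups did not overlap. NF-YC1 (2.61 ± 0.36), AT4G38090 (2.54 ± 0.48), the RNA-binding AT1G76940 (2.50 ± 0.44), AT5G02860 (2.31 ± 0.35), the cation efflux gene AT3G12100 (2.26 ± 0.24) and AT4G15140 (2.25 ± 0.45) were higher, the last not called in a fit of the 6 libraries alone (adjusted p = 0.0143).

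At 3 d 59 of the 150 members (39.3%) were higher in *rpn12a-236* than at 0 d and 8 (5.33%) lower, against a background of 29.6% and 29.8%, and the median difference was 0.81 against 0.04. With a limit of 0.4 in the rule 33 genes (23.6%) were higher and 39 (27.9%) lower, and the median was -0.0186. Of the 79 members among them 30 were higher and 5 lower, and of the other 61 genes 3 were higher and 34 lower. HMT2 had 0.91, 0.72 and 0.73 in *rpn12a-236* IDLs at 3 d against -2.79, -2.80 and -2.62 at 0 d (3.52 ± 0.22, adjusted p = 1.71e-09). AT5G64730, a WD40 repeat protein, had 1.92, 2.19 and 1.52 against -0.91, -1.06 and -1.63 (3.08 ± 0.28). POLD4, a small subunit of DNA polymerase delta (2.96 ± 0.25), AT5G02860 (2.82 ± 0.35), EBS3, a mannosyltransferase that builds N-glycans in the endoplasmic reticulum (2.72 ± 0.16), and COP13, a subunit of the COP9 signalosome (2.62 ± 0.33), were next. IRE1-1 (-2.33 ± 0.46), AHP2 (-2.31 ± 0.40), EIN4 (-2.30 ± 0.49), AT4G20835 (-2.27 ± 0.34) and EFE, an enzyme that makes ethylene (-1.54 ± 0.29), were lower. ERF11 was lower as well (-1.73 ± 0.42), with an adjusted p of 0.0103 without *rpn12a-236* IDL 3 d replicate 3, and AT4G20835 was not called in a fit of all 42 libraries (adjusted p = 0.0139).

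Across the 3 times 11 members (7.33%, background 14.1%) were higher than at 0 d each time (SWEET12, AT1G66530, AT4G38090, ckl5, AT5G64730, PP2AA3, EBS3, NF-YC1, RECQL2, HMT2 and AT5G02860) and 2 (1.33%, background 15.4%) were lower each time (IRE1-1 and ERF11). At 3 d alone 25 members (16.7%, background 5.65%) were called higher, among them JAZ4, the histone acetyltransferase HAM1, the chromatin remodeller CHR24, the chaperonin AT3G18190 and nucleolin NUC-L2. Another 7 (4.67%, background 1.82%) were lower at 6 h or 1 d and higher at 3 d, among them DER1, a derlin of the endoplasmic reticulum, and EGY3. A further 35 (23.3%, background 10.2%) were lower at 6 h or 1 d and not called at 3 d. No call was made at any of the 3 times for 43 members (28.7%, background 22.2%), the head of the list (AT5G18420, AT4G13360 and SEH1H) among them. Higher calls at 3 d in both genotypes were made for 35 members (23.3%, background 20%) and lower calls for 3 (2%, background 21.4%), which were EIN4, AT4G32390 and NUDT17. These counts set the mutant against its leaves of 0 d and WT against its light leaves of 3 d. The rule kept genes with small WT differences at 6 h and 1 d and ranked them by the WT difference at 6 d. It also held *rpn12a-236* IDLs near WT IDLs at 6 d. A late rise is thus favoured by the rule, and the share called higher at 3 d alone is a description, not a separate result.

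The upstream bases of 3 members that rose in *rpn12a-236* at 3 d are shown as examples, picked after their values were seen. Each holds a pair of matches to site II, an element found before many genes of the ribosome and of mitochondrial proteins. How often other genes hold such a pair was not counted, and HMT2, POLD4 and COP13, also among the largest rises, are not shown. The runs are the 150 bases before the annotated gene start on the strand of the gene, from RefSeq TAIR10.1, and capitals mark site II (TGGGCC or TGGGCT, both strands). AT5G64730 is at chr5:25872951-25873100 (+), EBS3 at chr1:5782434-5782583 (-) and AT5G02860 at chr5:653836-653985 (+).
AT5G64730: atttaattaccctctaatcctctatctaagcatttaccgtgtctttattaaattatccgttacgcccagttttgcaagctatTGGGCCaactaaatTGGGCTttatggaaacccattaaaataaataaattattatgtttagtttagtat
EBS3: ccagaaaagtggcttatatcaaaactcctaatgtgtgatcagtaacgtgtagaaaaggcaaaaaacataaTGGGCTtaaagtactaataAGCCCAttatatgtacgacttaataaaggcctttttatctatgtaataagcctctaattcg
AT5G02860: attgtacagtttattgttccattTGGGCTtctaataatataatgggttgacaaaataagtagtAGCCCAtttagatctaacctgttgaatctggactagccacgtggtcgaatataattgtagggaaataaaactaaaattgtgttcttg

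Site II was found within 250 bases upstream in 43 of 148 members with a window (29.1%), against 23.9% of 16773 genes without a shared lowest value. The W-box (TTGACC or TTGACT), which WRKY factors bind, was in 29.7% of members against 27.7%, and the G-box (CACGTG) in 8.11% against 7.42%. The ABRE (ACGTGTC or ACGTGGC) of abscisic acid response, which can share bases with a G-box, was in 6.08% against 7.49%, the telo-box (AAACCCTAA) in 2.70% against 2.17% and the evening element (AAAATATCT) in 1.35% against 2.46%. Both strands were searched. These shares lie near those of the other genes and are a description of letters only.

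Before darkening, members were more often higher than lower in *rpn12a-236*. At 0 d 24 (16%) were higher than in WT and 9 (6%) lower, against a background of 10.2% and 13%, with a median difference of 0.23 against -0.11. The count rests on several libraries: 20 members were called without WT light 0 d replicate 1, without *rpn12a-236* light 0 d replicate 1 or without *rpn12a-236* light 0 d replicate 3, and 13 in a fit of the 6 libraries alone. AT4G03230 had 1.34, 0.84 and 0.61 in *rpn12a-236* against -1.62, -1.69 and -1.21 in WT (2.43 ± 0.30, adjusted p = 1.64e-05). The kinase gene AT3G61960 (2.08 ± 0.21) and the methyltransferase AT2G31740 (1.83 ± 0.24) were higher too, as was ABCC7 (1.91 ± 0.35), whose call was lost in a fit of the 6 libraries alone (adjusted p = 0.022) and in one of all 42 (adjusted p = 0.023). ANAC087 had 0.45, 0.17 and 0.34 in *rpn12a-236* against -1.14, -0.97 and -1.15 in WT (1.40 ± 0.22), so that this NAC factor was already higher in lit mutant leaves. Of 13 transport members 7 were higher and 0 lower, beside the background of 10.2% and 13%. The higher ones included SWEET12 (1.11 ± 0.14), the calcium pump ECA2 (1.25), the proton pump HA5 (1.63), MGT2 (1.20), a magnesium transporter, and AT3G12100 (1.41).

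On the lower side at 0 d, HMT2 had -2.79, -2.80 and -2.62 in *rpn12a-236* against -0.71, 0.19 and -0.27 in WT (-2.47 ± 0.22). AT1G07940 (-1.55 ± 0.28), POLD4 (-1.27 ± 0.25) and AT3G43520 (-1.04 ± 0.16) were lower with it. HMT2 and POLD4 are thus members whose rise in the mutant began from a lower value than in WT. The calls of AT4G13860 (1.87 ± 0.44), PRP40C (1.73 ± 0.43), NUC-L2 (-1.31 ± 0.30) and AT1G03990 (-1.15 ± 0.28) were lost without 1 of 4 or 5 of the 6 libraries, with adjusted p up to 0.0245, 0.0266, 0.0231 and 0.0264. Leaving out *rpn12a-236* light 0 d replicate 1 was enough for each of them.

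**Figure D3:**
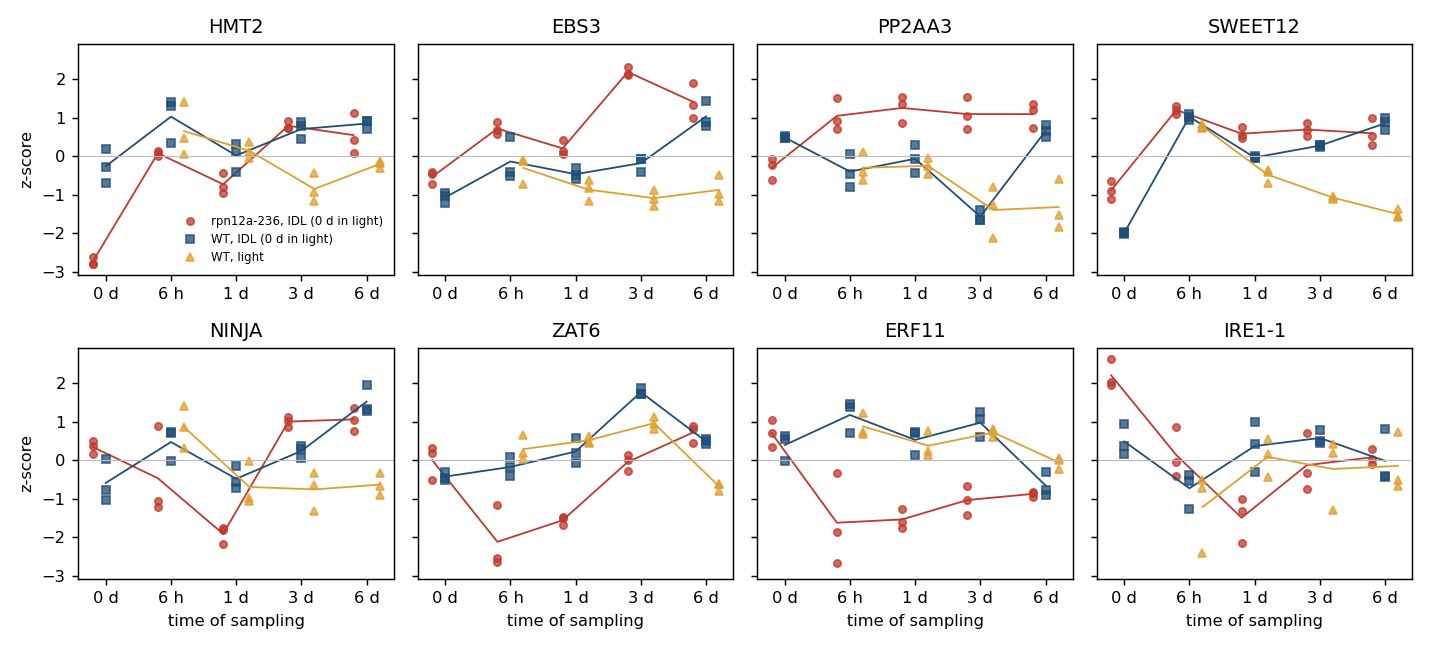
z-scores (y axis) of 8 members in every library of *rpn12a-236* IDLs, WT IDLs and WT light leaves by time (x axis, evenly spaced); each point is 1 library and lines join group means. HMT2 begins between -2.80 and -2.62 in *rpn12a-236* and PP2AA3 differs between the genotypes at 3 d but not at 6 d, where the rule held them alike.

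The rule holds the genotypes alike at 6 d, and the comparison of IDLs at 3 d asked whether they were alike then too. In *rpn12a-236* IDLs 30 members (20%) were higher than in WT IDLs and 18 (12%) lower, against a background of 18.8% and 18.1%, with a median difference of 0.28 against 0.02. The genotypes thus differed no more often in the members than in the background. The RING finger gene AT3G54780 had 1.35, 0.82 and 1.49 in *rpn12a-236* against -1.86, -2.04 and -1.86 in WT (3.14 ± 0.37, adjusted p = 4.5e-06). PP2AA3 had 1.05, 0.70 and 1.52 against -1.65, -1.66 and -1.40 (2.66 ± 0.31). EBS3 (2.36 ± 0.16), AT2G31740 (2.22 ± 0.24), AT4G39690, a subunit of the MICOS complex that shapes mitochondrial membranes (2.16 ± 0.34), PRR7 (1.38 ± 0.20) and TPR1 (1.20 ± 0.18) were higher as well. AT3G51760 (2.56 ± 0.65) lost its call without WT IDL 3 d replicate 2 or 3 or *rpn12a-236* IDL 3 d replicate 1 or 2, with adjusted p up to 0.0278.

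On the lower side at 3 d, AT4G22820, an A20/AN1 zinc finger protein, had 0.07, 0.03 and -0.41 in *rpn12a-236* against 1.62, 2.22 and 2.103 in WT (-2.08 ± 0.21, adjusted p = 9.65e-07). AT3G52800, of the same family, differed by -1.86 ± 0.32, and ZAT6, a C2H2 zinc finger repressor, by -1.81 ± 0.30. UBC29 had 0.30, 0.02 and -0.58 in *rpn12a-236* against 1.82, 1.82 and 1.63 in WT (-1.84 ± 0.28). ERF11 (-2.01 ± 0.42), AT5G63130 (-1.82 ± 0.36) and AT1G03990 (-1.81 ± 0.28) were lower too, of which AT5G63130 was not called in a fit of the 6 libraries alone (adjusted p = 0.0179). Of 20 RNA processing and translation members 3 were higher and 5 lower, beside a background of 18.8% higher and 18.1% lower.

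Whether the response itself differed was tested as an interaction: the change of *rpn12a-236* between 0 d and 3 d less the change of WT between 0 d and 3 d. Both changes are taken against 0 d, so darkening and leaf age cannot be told apart in this test. It was higher in the mutant for 16 members (10.7%) and lower for 11 (7.33%), against a background of 12% and 9.72%, with a median of 0.04. The share of members called was thus close to that of other genes. PP2AA3 had the largest positive value (3.45 ± 0.43, adjusted p = 2.88e-05), with -0.24, -0.07 and -0.61 in *rpn12a-236* and 0.53, 0.46 and 0.46 in WT at 0 d beside the values of 3 d above. Its WT light leaves alone differed by -1.88 ± 0.31 between 3 d and 0 d. WT IDLs and WT light leaves of 3 d differed by only -0.17 ± 0.31 (limma, adjusted p = 0.658). AT5G64730 (2.66 ± 0.40), COP13 (2.58 ± 0.47), HMT2 (2.56 ± 0.32), POLD4 (2.56 ± 0.35) and AT5G02860 (2.48 ± 0.49) followed.

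The largest negative value of the interaction was that of AT4G03230 (-3.74 ± 0.43, adjusted p = 1.34e-05). It had 0.08, 0.60 and 0.15 in *rpn12a-236* IDLs at 3 d and 1.34, 0.84 and 0.61 at 0 d, beside 1.99, 1.79 and 0.98 in WT IDLs at 3 d and -1.62, -1.69 and -1.21 at 0 d. AT4G13860 (-3.23 ± 0.62), AT1G07300 (-2.44 ± 0.40), AT5G63130 (-2.34 ± 0.50) and ZAT6 (-2.24 ± 0.42) were negative too, of which AT5G63130 was not called in a fit of the 12 libraries alone (adjusted p = 0.0103). AT1G07300 differed by 2.67 between darkened and lit WT leaves but had 0.88, 0.47 and 0.97 in *rpn12a-236* IDLs of 3 d against 0.53, 0.22 and 0.53 at 0 d. ERF11 (-2.32 ± 0.59) lost its call without any 1 of 9 of the 12 libraries, the exceptions being WT IDL 3 d replicate 1, *rpn12a-236* IDL 3 d replicate 1 and *rpn12a-236* light 0 d replicate 1, with adjusted p up to 0.0206.

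**Figure D4:**
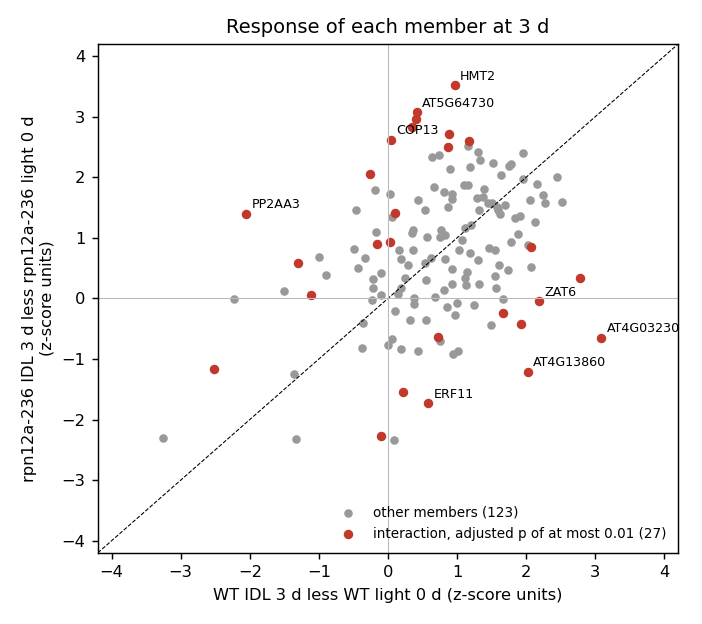
Change at 3 d of darkening relative to 0 d in *rpn12a-236* (y axis) against that in WT (x axis), in z-score units, for the 150 members; the dashed line marks equal changes and red points are the 27 members called for the interaction. PP2AA3, HMT2 and AT5G64730 lie above the line, and AT4G03230, AT4G13860 and ZAT6 below it. Members were called no more often than other genes (10.7% higher and 7.33% lower, against 12% and 9.72%).

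JAZ4, NINJA and TPR1 belong to the repressor of jasmonate response, in which JAZ proteins hold back transcription factors, NINJA links JAZ to a corepressor and TOPLESS-related proteins such as TPR1 are that corepressor. JAZ4 had 0.85, 1.18 and 0.42 in *rpn12a-236* IDLs at 3 d against -1.19, -0.57 and -0.50 at 0 d (1.57 ± 0.27, adjusted p = 6.86e-05). In WT it had 0.64, 1.12 and 1.16 in IDLs of 3 d against -0.06, -0.02 and 0.01 in light leaves (1.00 ± 0.27). This WT call was lost without WT IDL 3 d replicate 2 or 3 or WT light 3 d replicate 1 or 2, with an adjusted p up to 0.018. TPR1 had 1.39, 1.53 and 1.83 in *rpn12a-236* IDLs at 3 d against 0.66, 0.66 and 0.75 at 0 d (0.89 ± 0.18), and 0.45, 0.21 and 0.50 in WT IDLs against -0.56, -0.30 and -0.44 in light leaves (0.82 ± 0.18). Against 0 d, however, TPR1 differed by -0.16 in WT IDLs of 3 d and by -0.98 ± 0.18 in WT light leaves of 3 d. Its interaction was called (1.05 ± 0.25, adjusted p = 0.00443), with an adjusted p up to 0.015 when 1 library was left out. NINJA differed from 0 d by -2.25 ± 0.42 at 1 d in the mutant (adjusted p = 0.00021). At 3 d its differences were 0.66 ± 0.42 in *rpn12a-236* (adjusted p = 0.198) and 1.00 ± 0.42 in WT (adjusted p = 0.0524), neither of them called.

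The 7 members grouped under hormone pathways were JAZ4, NINJA, TPR1, EIN4, EFE, AHP2 and ERF11. ABCC7, which is in the study's hormone list, was grouped under transport. Against 0 d in *rpn12a-236* ABCC7 was lower at 1 d (-3.09 ± 0.35) and not called at 3 d (-0.87 ± 0.35, limma, adjusted p = 0.0437). Of the 7 hormone members 4 were lower in *rpn12a-236* at 3 d than at 0 d (EIN4, EFE, AHP2 and ERF11) and 2 higher (JAZ4 and TPR1), beside a background of 29.8% lower and 29.6% higher. At 1 d 4 were lower (NINJA, TPR1, EIN4 and ERF11) and 0 higher, beside 29% and 27%, TPR1 not in a fit of the 6 libraries alone (adjusted p = 0.0133). EIN4 had -1.83, -0.94 and -0.02 in *rpn12a-236* IDLs at 3 d against 1.63, 0.57 and 1.93 at 0 d, and its groups did not overlap. EFE had -1.32, -1.43 and -1.06 against 0.66, 0.27 and -0.11, and AHP2 had -0.43, -1.18 and 0.51 against 2.00, 2.29 and 1.56. In WT at 3 d EFE differed between IDLs and light leaves by -0.42 ± 0.29 (adjusted p = 0.228). ERF11 differed by 0.25 ± 0.42 (adjusted p = 0.63) and AHP2 by 1.08 ± 0.40 (adjusted p = 0.0274). These WT values are taken against light leaves of 3 d, and those of the mutant against 0 d. Against 0 d, WT IDLs of 3 d differed by -3.26 in EIN4, 0.21 in EFE, -1.34 in AHP2 and 0.58 in ERF11. AHP2 also differed by -2.41 ± 0.40 between WT light leaves of 3 d and 0 d. The interaction was called for EFE and ERF11, but not for EIN4 or AHP2 (-0.98 ± 0.56, limma, adjusted p = 0.212). Both calls were lost without certain single libraries. ANAC087 had 1.28, 1.16 and 1.04 in *rpn12a-236* IDLs at 3 d against 0.45, 0.17 and 0.34 at 0 d (0.85 ± 0.22), a call lost without *rpn12a-236* IDL 3 d replicate 1 or *rpn12a-236* light 0 d replicate 2 (adjusted p up to 0.0142). In WT, ANAC087 differed by 2.07 between IDLs of 3 d and leaves of 0 d. Its interaction was called (-1.23 ± 0.31, limma, adjusted p = 0.00621). That call was lost without any 1 of 8 libraries, with adjusted p up to 0.0179.

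**Figure D5:**
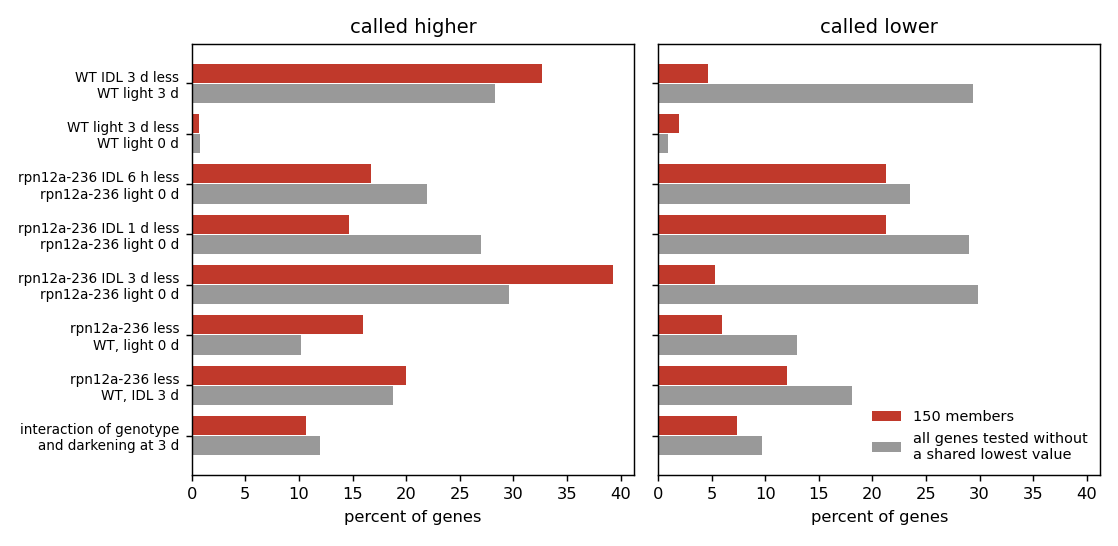
Percent of the 150 members (red) and of all tested genes without a shared lowest value (grey) called higher (left) and lower (right) in each of 8 comparisons. Members lower at 3 d of darkening are 4.67% in WT and 5.33% in *rpn12a-236*, against 29.4% and 29.8% of the background. With a limit of 0.4 in the rule, which leaves no cut by rank, 25.7% and 27.9% of all 140 genes are lower. Of the 79 members among these genes 2.53% and 6.33% are lower.

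In 26 members (17.3%, background 11.4%) none of the 8 comparisons gave a call. They include NRPB8B, a subunit of RNA polymerases, AE7, which helps to place iron-sulfur clusters, TY1, a thioredoxin, and GAE3, an epimerase of cell wall sugars. A missed call does not show that these members were unchanged.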

How the data were processed

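RNA-seq reads of 42 leaf libraries were processed by the authors: per the labels and methods, reads were checked with FastQC 0.11.4, freed of rRNA with SortMeRNA, trimmed with Trimmomatic, quantified against TAIR10 transcripts with kallisto 0.43.0, summed to genes with tximport, variance-stabilized with DESeq2 1.14.1 and scaled gene by gene. What was deposited is therefore a score (a z-score for each gene and library), and read depth is unknown here. Columns assigned to no sample numbered 0. The members and gene lists were chosen with earlier results of these data known. Members were found by the rule, with a lowest value taken as shared within 1e-06. In limma 3.58.1 (R 4.3.3) group means of the 21 libraries not used by the rule were fitted for genes with at least 3 libraries above the lowest value, and p-values were adjusted by Benjamini-Hochberg. The functions were tested on simulated data. Same-numbered libraries had deviations correlated by -0.15 to 0.07, so numbers were not treated as pairs. p-values measure the spread between pools of leaves. Named members were the 10 highest by rank, those next to the edge, up to 6 in each direction per comparison whose groups did not overlap (for the interaction, the 6 largest), listed genes, and factors, receptors or transporters; others (examples of roles and patterns) were chosen after their values were seen, as were the annotation groups and the sequences shown. Symbols, products, coordinates and sequences came from RefSeq TAIR10.1, which matched 150 of 150 members; the files give no coordinates. Alternatives were other libraries in the fit, an adjusted p of at most 0.001, no filter, the replicate block, limits of 0.4 and 0.6 in the rule, and leaving out each library. Python 3.11.15 and matplotlib 3.10.9 were used.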

Additional observations from a re-analysis of the deposited data

Results flagged for a closer look

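The change between 0 d and 3 d of darkening differed between *rpn12a-236* and WT for 27 members in the test of the difference itself (limma interaction, adjusted p of at most 0.01). It was higher in *rpn12a-236* for 16 members (10.7%, background 12%) and lower for 11 (7.33%, background 9.72%). Members were thus called no more often than other genes. The 6 largest values higher in *rpn12a-236* were those of PP2AA3 (3.45), AT5G64730 (2.66), COP13 (2.58), HMT2 (2.56), POLD4 (2.56) and AT5G02860 (2.48). The 6 largest lower in *rpn12a-236* were those of AT4G03230 (-3.74), AT4G13860 (-3.23), AT1G07300 (-2.44), AT5G63130 (-2.34), ERF11 (-2.32) and ZAT6 (-2.24). HMT2 and POLD4 (lower in *rpn12a-236*) and AT4G03230 and AT4G13860 (higher) also differed between the genotypes at 0 d, which enters this test. Leaf age enters it too, as no light leaves of 3 d are used. PP2AA3 differed by -1.88 between WT light leaves of 3 d and 0 d, and by -0.17 between WT IDLs and light leaves of 3 d. Groups of 3 libraries are too small for a check of single libraries that stand apart.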

How the results depend on the processing

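With a rule limit of 0.4 just 140 genes passed, so that all were taken, 79 of them members, and medians changed: 0.19 for WT IDLs less light leaves at 3 d, 0.0696 for WT light leaves of 3 d less 0 d, -0.49 and -0.0186 for *rpn12a-236* at 1 d and 3 d less 0 d, and 0.0357 and 0.0361 for *rpn12a-236* less WT before darkening and after 3 d. Calls at 0.4 turned from mostly higher to mostly lower in WT and *rpn12a-236* IDLs at 3 d (28 higher and 36 lower, 33 and 39) and for the interaction (12 and 17). Among the 79 members they were 28 and 2, 30 and 5, and 7 and 7. With 0.6, 93 of the 150 genes were members and these medians were 0.98, -0.11, 0.0859 and 1.13, and 0.43 for *rpn12a-236* less WT after 3 d. Calls at 0.6 were 66 higher and 1 lower in WT IDLs at 3 d, 74 and 3 in *rpn12a-236* IDLs at 3 d, and 16 and 9 for the interaction. The background was counted only for the fit of the 21 libraries at an adjusted p of at most 0.01. That fit gave the counts at 0.4 and 0.6 as well. The counts that follow come from other settings and have no background, so they may have moved as those of all genes did. With the stricter adjusted p of 0.001, 0 members were called for light leaves of 3 d less 0 d, 35 for *rpn12a-236* at 6 h, 14 and 28 for *rpn12a-236* less WT at 0 d and 3 d, and 11 for the interaction. With the compared libraries alone 0 were called in WT light leaves and 13 for *rpn12a-236* less WT at 0 d. The replicate block kept the total of calls within 1.5 times in all 8 comparisons (56 in WT IDLs less light leaves at 3 d, as without it, and 3 in WT light leaves, 4 without it). Leaving out single libraries gave 46 to 52 members in WT at 3 d, 0 to 4 in WT light leaves, 45 to 57, 45 to 49 and 53 to 65 in *rpn12a-236* at 6 h, 1 d and 3 d, 20 to 24 and 35 to 39 between genotypes at 0 d and 3 d, and 19 to 24 for the interaction. The medians then ran between 0.76 and 0.82, -0.0348 and 0.0869, -0.09 and 0.02, -0.27 and -0.14, 0.77 and 0.86, 0.13 and 0.26, 0.25 and 0.31, and -0.02 and 0.09, in the same order. Of 88 named differences 0 turned direction; 16 lost their call with the compared libraries alone, 7 with all 42 libraries and 2 with the block. Depth is unknown from z-scores, and 3 pools a group limit what can be called.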
